A study of Mus musculus with 12 samples.

Results

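A set of 10 genes of the epithelial state was followed in 4T1 cells, a mouse mammary carcinoma line: Epcam, Grhl2, Ovol1, Esrp1, Esrp2, Rab25, Prss8, St14, Spint1 and Spint2. They were chosen by name as regulators and surface proteins of epithelia, out of 31017 gene symbols in the count table. Earlier results of these data were known when they were chosen. All 10 were among the 12079 symbols that passed the filter on low counts. RNA sequencing compared control with ETV4 knockout cells, with and without fibroblast growth factors, in 3D cultures of collagen I. Etv4 encodes a transcription factor of the PEA3 family of ETS proteins.

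There were 4 groups of 3 libraries each. Every cell had been nucleofected with Cas9, together with a control guide RNA in the groups control and control_FGF and with a guide RNA against ETV4 in the groups Etv4_KO and Etv4_KO_FGF. The gels were kept in 2% serum, and their collagen concentration was one of 1.2 and 2.4 mg/ml, without an assignment to single libraries. The FGF groups had FGF10 (25 ng/ml) together with FGF2 (40 ng/ml), on the first day in 10% serum and for 4 more days in 2% serum. The protocol describes the step in 10% serum for the FGF experiments, so this serum step and FGF cannot be told apart where the other groups lacked it. Cells were recovered from the gels with collagenase, and polyA RNA was sequenced with a stranded kit. A tag without explanation is shared by the names of the 6 knockout libraries. Pool or clone is not stated for the knockout cells, and in a clone its own traits and the genotype cannot be told apart. Since separate cultures are not named for the replicates, the p-values cover the spread among these libraries, which may be technical.

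Epithelial cells keep their state through transcription factors such as Grhl2, a grainyhead-like activator of junction genes, and Ovol1, a zinc finger repressor of mesenchymal genes, and through the RNA-binding proteins Esrp1 and Esrp2, which set epithelial splice forms. At the cell surface, Epcam is an adhesion molecule, Prss8 (prostasin) and St14 (matriptase) are serine proteases of a shared cascade, and Spint1 and Spint2 are Kunitz-type inhibitors of these proteases. Rab25 is a small GTPase of the Rab11 family that directs cargo through recycling endosomes in epithelia.

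RefSeq promoter windows, from 250 bases before to 50 after the start, were matched for 4 of the 10 members: Epcam, Rab25, Spint1 and Spint2. No window was matched for Esrp1, Esrp2, Grhl2, Ovol1, Prss8 and St14. The windows printed belong to the member with the deepest fall (Rab25), to another that fell (Epcam) and to one that rose (Spint2). They are from GRCm38.p6 and run 5′ to 3′ on the strand of the gene, with matches to the motifs searched in capitals.
Rab25, chr3:88548230-88548529, minus strand: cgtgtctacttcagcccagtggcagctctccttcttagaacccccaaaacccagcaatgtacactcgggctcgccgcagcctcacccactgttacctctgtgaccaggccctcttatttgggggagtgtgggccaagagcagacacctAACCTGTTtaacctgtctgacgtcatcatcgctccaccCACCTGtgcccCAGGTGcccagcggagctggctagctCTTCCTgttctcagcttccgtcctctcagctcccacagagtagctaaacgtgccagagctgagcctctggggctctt
Epcam, chr17:87635729-87636028, plus strand: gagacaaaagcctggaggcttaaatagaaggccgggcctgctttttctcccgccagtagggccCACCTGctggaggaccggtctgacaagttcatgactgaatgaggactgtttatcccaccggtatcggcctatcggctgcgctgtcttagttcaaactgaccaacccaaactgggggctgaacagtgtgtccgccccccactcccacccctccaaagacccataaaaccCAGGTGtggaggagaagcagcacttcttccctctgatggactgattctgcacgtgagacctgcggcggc
Spint2, chr7:29281928-29282227, minus strand: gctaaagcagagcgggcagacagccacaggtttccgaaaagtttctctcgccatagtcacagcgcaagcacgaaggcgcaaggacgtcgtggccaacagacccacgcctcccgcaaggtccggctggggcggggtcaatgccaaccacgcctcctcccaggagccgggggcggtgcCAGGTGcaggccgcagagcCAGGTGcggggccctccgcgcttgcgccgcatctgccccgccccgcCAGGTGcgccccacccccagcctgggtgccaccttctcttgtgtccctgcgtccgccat
The motifs, searched on both strands, were AACNGGTT of grainyhead factors, the E-box CAGGTG of ZEB and SNAIL factors, and AGGAAG, the core of PEA3-type ETS sites. The Rab25 window held 1 grainyhead match at position -102 from the start site, 2 E-box matches at -64 and -53, and 1 ETS core match at -27. The Epcam window held 2 E-box matches, at -187 and -19, and the Spint2 window 3, at -74, -55 and -9, with no match to the other motifs. The Spint1 window held none of these motifs. Of the 32851 windows in the table, 2.088% held the grainyhead letters, 20.21% the E-box letters and 35.35% the ETS core letters. A match is a string of letters and no measurement of binding.

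Library totals ran from 18229429 to 23193244 counts. Control and knockout libraries lay apart on the first principal component (71.4% of the variance), and Etv4_KO replicate 2 stood alone on the second (10.4%). Per degree of freedom, the chi-square of that library against the others of its group was 70.7 and 69.9, against 3.31 to 11.5 for all other replicate pairs. Etv4 was present in all 12 libraries and fell in knockout cells (log2 -0.35 with SE 0.11, edgeR adjusted p = 0.0173 without FGF, log2 -0.51 with SE 0.11, edgeR adjusted p = 0.00204 with FGF). Without FGF its call was lost on leaving out control replicate 1, or replicate 1 or 3 of Etv4_KO (edgeR adjusted p = 0.0514, 0.0661 and 0.0667). A transcript level does not measure the protein.

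All 5 epithelial markers (Cdh1, Krt8, Krt18, Krt19, Krt7) were present in every library. Their summed level was 4279 to 4437 CPM in control, 4117 to 5977 in Etv4_KO, 4356 to 4884 in control_FGF and 3672 to 3800 in Etv4_KO_FGF libraries, where CPM stands for TMM-scaled counts relative to library size. Dcn and Lum of fibroblasts, Adgre1 and Cd3e of leukocytes and Kdr of endothelium had 0 counts in all libraries. The sum of the 6 fibroblast markers, nearly all Pdgfra, was 9.76 to 11.5, 8.81 to 14.1, 7.93 to 11.3 and 12.3 to 15.9 CPM in the same order of groups. The sum of the 5 leukocyte markers, nearly all Cd68, was 5.63 to 9.30, 9.02 to 11.5, 6.31 to 7.57 and 9.02 to 9.83 CPM, and that of the 4 endothelial markers was at most 0.748 CPM. With FGF both the fibroblast and the leukocyte sum were higher in every knockout library than in any control library. The epithelial sum was lower in every knockout library with FGF than in any control library with FGF. The part of these sums in the results was not tested.

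Levels of different genes are compared per kilobase of exon, as RPKM (mean ± SD, n = 3). In control cells Epcam was the most abundant member at 172 ± 1.80 RPKM. Spint2 followed at 59.7 ± 1.46, Spint1 at 44.3 ± 1.79, St14 at 26.0 ± 1.05 and Esrp1 at 19.9 ± 0.441 RPKM. Rab25 stood at 17.7 ± 0.0772, Prss8 at 11.4 ± 0.269, Grhl2 at 8.30 ± 0.382, Esrp2 at 6.34 ± 0.492 and Ovol1 at 4.70 ± 0.485 RPKM. Neighbours in this order did not overlap in their control libraries. In knockout cells the first 5 places were the same and Rab25 came last at 0.254 ± 0.205 RPKM, while the libraries of Esrp1 (11.8 to 16.6 RPKM) overlapped with those of Prss8 (10.3 to 15.8 RPKM).

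**Figure D1:**
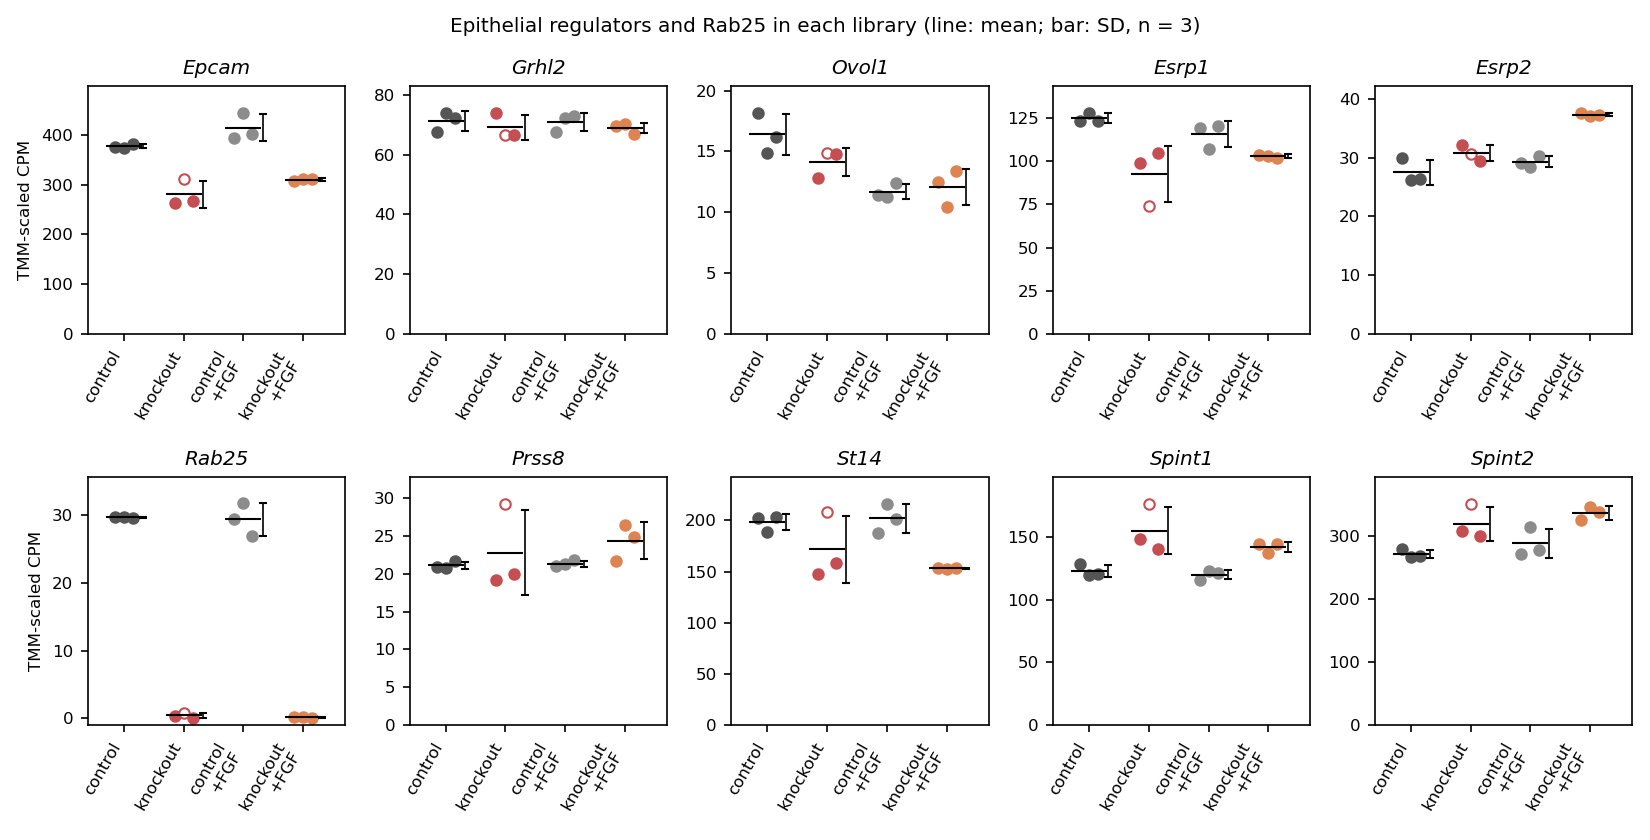
TMM-scaled level in CPM (y axis, from 0, and from just under 0 for Rab25) of the 10 members in each of the 12 libraries, by group (x axis). Points are libraries, the open point is Etv4_KO replicate 2, lines are means and bars SD (n = 3); Rab25 is at 27.0 CPM or more in control and under 1 CPM in knockout libraries, while the other members keep levels of the same order in all groups.

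Without FGF, the comparison of both genotypes shows how the members stand with the ETV4 guide at baseline. Rab25 all but disappeared, Epcam and Esrp1 fell to a smaller degree, and both protease inhibitors rose. Grhl2, Ovol1, Esrp2 and both proteases did not pass the test. Of the 10 members 2 rose, against 22.5% of all genes tested, and 3 fell, against 23.3% of all, so these shares are near the background. The median log2 fold change of the members was -0.13, beside -0.01 over all genes. A change of at least 2-fold was called for 1 of the 10 members, against 1193 of the 12079 genes tested. In bulk RNA, fewer cells that express a gene and less RNA per cell cannot be told apart.

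With FGF in both arms, 3 members rose, against 18% of all genes tested, and 3 fell, against 22.2% of all. Rab25, Epcam, Spint1 and Spint2 were called in the same direction as without FGF. Esrp2 and St14 passed the test here and not without FGF, and Esrp1 the reverse, but for none of them did the interaction of genotype and FGF pass its test. The median of the members was 0.0038, beside -0.01 over all genes.

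**Figure D2:**
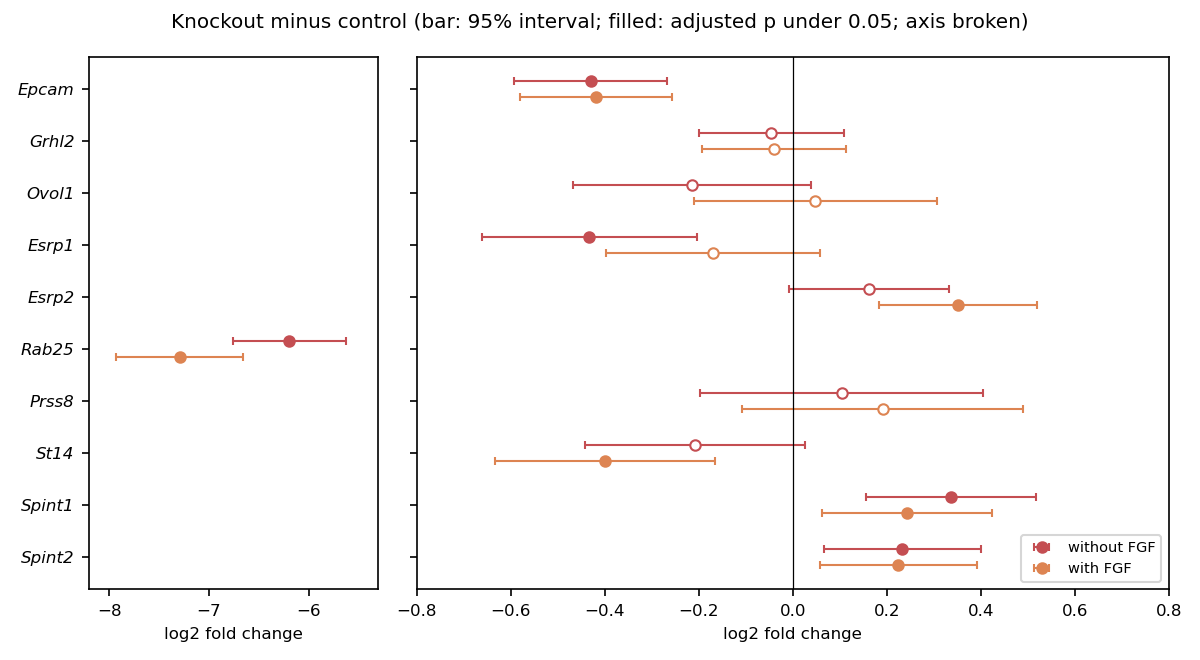
Log2 fold change of each member, knockout minus control (x axis, broken between Rab25 and the rest), without and with FGF. Points are edgeR estimates from 3 against 3 libraries with their 95% intervals, and filled points had an adjusted p under 0.05; Rab25 lies at -6.19 and -7.29, and all other members between -0.43 and 0.35.

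Rab25 (mm10, chromosome 3, 88542029 to 88548300, minus strand) had the strongest difference of the set. In control replicates 1 to 3 it had 633, 630 and 593 counts (29.8, 29.8 and 29.5 CPM), and in knockout replicates 8, 13 and 2 counts (0.404, 0.779 and 0.0934 CPM). With FGF the control libraries had 703, 629 and 567 counts (29.4, 31.8 and 27.0 CPM) and the knockout libraries 5, 4 and 2 counts (0.234, 0.211 and 0.0986 CPM). Every control library was far above every knockout library, and no knockout library was at 0. Rab25 fell in both conditions (log2 -6.19 with SE 0.26, edgeR adjusted p = 2.74e-09 without FGF, log2 -7.29 with SE 0.29, edgeR adjusted p = 1.35e-09 with FGF).

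Summed over libraries, the ratio of control to knockout for Rab25 was 74.7 without FGF (1856 against 23 counts, 95% counting interval 49.6 to 118), so 1.34% of the level was left. With FGF the ratio was 162 (1899 against 11 counts, interval 90.1 to 324), and 0.619% was left. The intervals cover counting error only, and they overlap. Etv4_KO replicate 2 held 13 of the 23 knockout counts without FGF, and without that library the log2 fold change was -6.90 (edgeR adjusted p = 7.48e-17).

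The genes around Rab25 did not share its level of change. Within 1000 kb on either side lay 55 other tested genes, whose median log2 fold change was -0.06 without FGF (lowest -4.14, highest 0.47) and -0.14 with FGF (lowest -4.23, highest 0.25). The nearest tested gene on one side, Mex3a, had -1.39 without FGF, and the nearest on the other, Lamtor2, had 0.06. The 25 tested genes on each side had a median of -0.10 without and -0.15 with FGF.

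**Figure D3:**
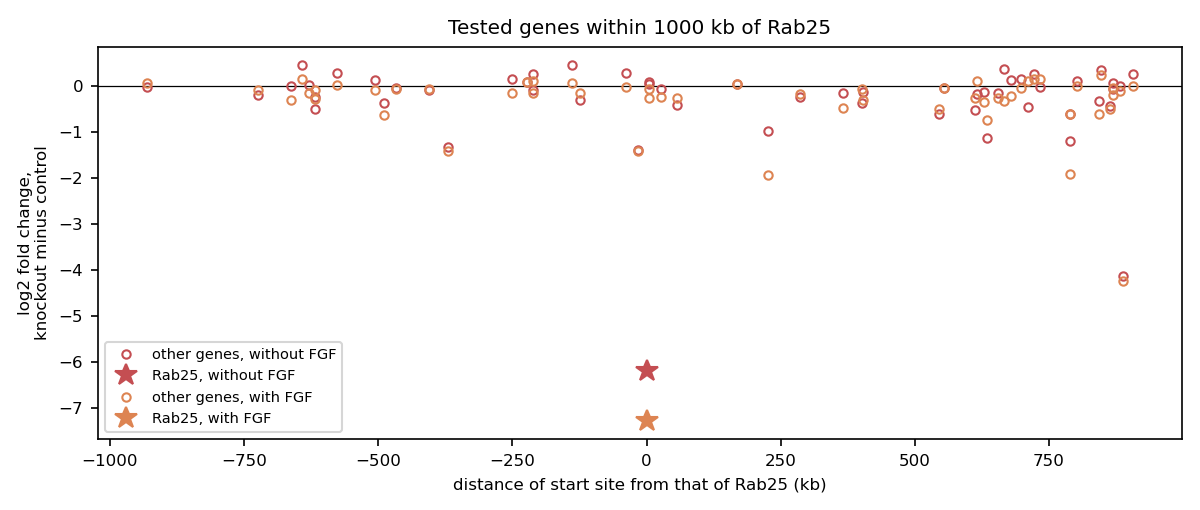
Log2 fold change, knockout minus control (y axis), of tested genes against the distance of their start sites from that of Rab25 in kb (x axis), without and with FGF. Circles are the 55 other tested genes within 1000 kb, with medians of -0.06 and -0.14, and stars are Rab25, at -6.19 and -7.29, below every one of them.

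The named genes most like Rab25 over the 12 libraries, by the root mean square difference of their centred log2 CPM, were Acot1 (0.51), Cldn7 (0.55), Rasef (0.57), Gpc4 (0.60) and Bspry (0.60). Cldn7, a claudin of epithelial junctions, had 11284 counts in the 3 control and 221 in the 3 knockout libraries without FGF, a ratio of 47.3 (95% counting interval 41.4 to 54.3). Rasef and Bspry had 0 counts in the 6 knockout libraries. At a floor of 3 counts per group they were at least 200.3-fold and 228-fold lower without FGF, and at least 165-fold and 232-fold lower with FGF. Acot1 had 392 against 2 counts without FGF, a ratio of 181 (interval 49.9 to 1504), and Gpc4 had 349 against 1, a ratio of 323 (interval 57.6 to 12800). With FGF both had 0 counts in the knockout libraries and were at least 110.5-fold and 125-fold lower. These genes were picked for this pattern, so their values are a description.

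Rab11a, the close relative of Rab25 that drives recycling in most cells, did not pass the test. It averaged 98.4 ± 5.81 CPM in control against 91.3 ± 1.08 in knockout cells (log2 -0.11, edgeR adjusted p = 0.271), and 98.7 ± 7.61 against 91.3 ± 5.44 CPM with FGF (log2 -0.11, edgeR adjusted p = 0.276; mean ± SD, n = 3). Rab11b rose without FGF, from 124 ± 3.27 to 168 ± 17.1 CPM (log2 0.44, edgeR adjusted p = 5.32e-04), and with FGF, where it went from 126 ± 4.399 to 152 ± 5.74 CPM (log2 0.26, edgeR adjusted p = 0.0158). The second call was lost without control_FGF replicate 3 or Etv4_KO_FGF replicate 2 (edgeR adjusted p = 0.0625 and 0.0651).

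Of 19 tested genes of the recycling endosome and Rab11 trafficking, 6 rose and 4 fell without FGF, and 7 rose and 3 fell with FGF. Their median was -0.01 without and 0.13 with FGF, beside -0.01 over all genes in both. Among all genes tested, 22.5% rose and 23.3% fell without FGF, and 18% rose and 22.2% fell with FGF. Ap1m2, a subunit of the epithelial clathrin adaptor for basolateral sorting, fell to 5.08 ± 1.04 CPM from 29.5 ± 1.28 without FGF (log2 -2.55, edgeR adjusted p = 2.18e-08), and fell with FGF (log2 -2.77, edgeR adjusted p = 9.38e-09). Rab11fip4, a Rab11 effector, fell too (log2 -1.31 and -0.63, edgeR adjusted p = 7.80e-06 and 0.00182). Another effector, Rab11fip5, rose (log2 0.58 and 0.31, edgeR adjusted p = 1.04e-04 and 0.00851). Ehd1, an ATPase of endosomal recycling, rose as well (log2 0.72 and 0.44, edgeR adjusted p = 5.63e-05 and 0.00236). Without control replicate 1 or Etv4_KO replicate 3, 2 genes of the list fell without FGF. With FGF, 4 rose without control_FGF replicate 3 or Etv4_KO_FGF replicate 2, and 5 fell without Etv4_KO replicate 2.

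Epcam (chromosome 17, 87635979 to 87651129, plus strand) stood at 377, 374 and 382 CPM in control and at 263, 312 and 267 CPM in knockout replicates 1 to 3. With FGF it stood at 395, 445 and 403 CPM in control and at 307, 312 and 311 CPM in knockout replicates. All 6 knockout libraries lay below all 6 control libraries, and Etv4_KO replicate 2 was the closest to control in its group. Epcam fell without FGF, where it decreased by 25.8% (log2 -0.43 with SE 0.08, edgeR adjusted p = 4.99e-04), and again with FGF (log2 -0.42 with SE 0.08, edgeR adjusted p = 6.59e-04). The named genes most like Epcam over the 12 libraries were Grb7, Vopp1, M6pr, Retreg3 and Tmem199, with root mean square differences from 0.05 to 0.07 in log2 CPM.

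Grhl2 (chromosome 15, 37233036 to 37363569, plus strand) was the flattest member. It stood at 67.8, 74.1 and 72.5 CPM in control and at 74.2, 66.7 and 66.8 CPM in knockout replicates 1 to 3, and with FGF at 67.6, 72.4 and 72.9 against 69.7, 70.3 and 67.0 CPM. Control and knockout libraries overlapped in both conditions. The log2 fold change was -0.05 without FGF (95% interval -0.20 to 0.11, edgeR adjusted p = 0.630) and -0.04 with FGF (interval -0.19 to 0.11, edgeR adjusted p = 0.688). The named genes with the most similar profile were Sfxn1, Polr3b, Shc1, Amd1 and Ptcd3, at a root mean square difference of 0.05 in log2 CPM. Exons of Gm16136 on the opposite strand share 169 bases with Grhl2, 1.962% of the Grhl2 exon bases.

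The paralogs of Grhl2 were scarce. Grhl3 had 99 counts in the control and 6 in the knockout libraries without FGF, a ratio of 15.3 (95% counting interval 6.78 to 42.6), and 57 against 6 with FGF, a ratio of 8.89 (interval 3.84 to 25.2). It fell in both conditions (edgeR adjusted p = 8.58e-04 and 0.00715). In knockout replicates 1 to 3 it stood at 0.303, 0 and 0 CPM without FGF and at 0.0468, 0.264 and 0 CPM with FGF. Grhl1 averaged 1.17 ± 0.283 CPM in control and 1.47 ± 0.139 in knockout cells, which did not pass the test (log2 0.34 with SE 0.26, edgeR adjusted p = 0.312). With FGF it rose to 1.42 ± 0.351 CPM from 0.759 ± 0.0494 (log2 0.90 with SE 0.28, edgeR adjusted p = 0.0205; mean ± SD, n = 3), a call lost without control_FGF replicate 1 or Etv4_KO_FGF replicate 3 (edgeR adjusted p = 0.0670 and 0.104).

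Ovol1 (chromosome 19, 5549136 to 5560646, minus strand) stood at 18.2, 14.8 and 16.2 CPM in control and at 12.8, 14.9 and 14.8 CPM in knockout replicates 1 to 3. With FGF it stood at 11.4, 11.3 and 12.4 against 12.4, 10.4 and 13.4 CPM. Both genotypes overlapped in both conditions, and the highest 2 values belonged to control libraries without FGF. The genotype difference did not pass the test without FGF (log2 -0.21 with SE 0.12, edgeR adjusted p = 0.154) or with FGF (log2 0.05 with SE 0.12, edgeR adjusted p = 0.783). Exons of Gm31166 on the opposite strand share 19.78% of the Ovol1 exon bases, and since the strand setting of the counting is not known here, the reads of both cannot be told apart. The paralog Ovol2 averaged 2.96 ± 0.136 CPM in control and 2.34 ± 0.409 in knockout cells (log2 -0.35, edgeR adjusted p = 0.159; mean ± SD, n = 3), and Ovol3 had at most 1 count in a library.

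Among 12 other tested regulators of epithelial transcription and splicing, 2 rose and 3 fell without FGF, and 4 rose and 2 fell with FGF. Their median was -0.11 without and 0.04 with FGF. The shares over all genes were 22.5% higher and 23.3% lower without FGF, and 18% and 22.2% with FGF. Klf5, a Krüppel-like factor of epithelial growth, rose to 266 ± 8.66 CPM from 204 ± 4.59 without FGF (log2 0.38, edgeR adjusted p = 5.40e-04) and to 250.2 ± 7.81 CPM from 195 ± 13.6 with FGF (log2 0.36, edgeR adjusted p = 9.01e-04; mean ± SD, n = 3). Klf4, a Krüppel-like factor of differentiation, fell without FGF (log2 -0.34, edgeR adjusted p = 9.60e-04) and rose with FGF (log2 0.21, edgeR adjusted p = 0.0208), and its interaction did not pass the test (log2 0.55, edgeR adjusted p = 0.0635). Elf3, an epithelial ETS factor, rose in both (log2 0.49 and 0.37, edgeR adjusted p = 0.00717 and 0.0382). Elf3 stood at 0.32 on leaving out Etv4_KO replicate 2 without FGF (edgeR adjusted p = 0.00597). With FGF its call was lost without control replicate 1 or 3, control_FGF replicate 1 or 3, or any 1 of the Etv4_KO_FGF replicates (edgeR adjusted p = 0.0506 to 0.133). The call of Klf4 with FGF was lost without control_FGF replicate 1 or 3 or Etv4_KO_FGF replicate 2 (edgeR adjusted p = 0.0550 to 0.0869), and its interaction passed without Etv4_KO replicate 2 (log2 0.57, edgeR adjusted p = 4.12e-04). With FGF, 1 regulator rose without control_FGF replicate 1, and 2 rose without control_FGF replicate 3, Etv4_KO_FGF replicate 2 or Etv4_KO_FGF replicate 3.

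The splicing regulators had fold changes of opposite sign. Esrp1 (chromosome 4, 11331933 to 11386783, minus strand) stood at 124, 128 and 124 CPM in control and at 99.1, 74.3 and 105 CPM in knockout replicates 1 to 3, and with FGF at 119.7, 107 and 121 against 104, 103 and 102 CPM. All 6 knockout libraries were below all 6 control libraries, with Etv4_KO replicate 2 the lowest. Esrp1 fell without FGF, where it decreased by 25.9% (log2 -0.43 with SE 0.11, edgeR adjusted p = 0.00476), and the log2 fold change was -0.30 without Etv4_KO replicate 2 (edgeR adjusted p = 2.30e-04). With FGF the difference did not pass the test (log2 -0.17 with SE 0.11, edgeR adjusted p = 0.220), and it passed without Etv4_KO replicate 2 (log2 -0.17, edgeR adjusted p = 0.00909). That library is in neither group of the comparison with FGF. A fit on the compared libraries alone also called Esrp1 lower with FGF (log2 -0.17, edgeR adjusted p = 0.0153).

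Esrp2 (chromosome 8, 106130319 to 106136974, minus strand) stood at 30.0, 26.2 and 26.4 CPM in control and at 32.3, 30.7 and 29.5 CPM in knockout replicates 1 to 3. With FGF it stood at 29.2, 28.4 and 30.3 against 37.7, 37.2 and 37.2 CPM. The groups overlapped without FGF and were apart with it. The difference without FGF did not pass the test (log2 0.16 with SE 0.08, edgeR adjusted p = 0.107), and with FGF Esrp2 rose (log2 0.35 with SE 0.08, edgeR adjusted p = 0.00288). Exons of Nfatc3 on the opposite strand share 5.046% of its exon bases.

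Per kilobase, the ratio of Esrp1 to Esrp2 lay between 2.84 and 3.38 in control and between 1.67 and 2.44 in knockout libraries. With FGF it lay between 2.597 and 2.82 in control and between 1.88 and 1.91 in knockout libraries. Esrp1 was the more abundant of the pair in every library, and the ratio was lower in each knockout library than in any control library. Over all genes tested, 22.5% rose and 23.3% fell without FGF, and 18% rose and 22.2% fell with FGF. Of 12 genes whose splicing Esrp1 and Esrp2 are known to control, 1 rose and 3 fell in total level without FGF. With FGF 3 of them rose and 2 fell, and neither result says anything of their isoforms. Their median was -0.02 without and -0.03 with FGF.

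Among them Cd44, a receptor for hyaluronan, rose to 1172 ± 289 CPM from 894 ± 33.9 without FGF (log2 0.39, edgeR adjusted p = 0.0296), where the groups overlapped, and to 1841 ± 40.6 CPM from 995 ± 44.8 with FGF (log2 0.89, edgeR adjusted p = 1.85e-04; mean ± SD, n = 3). Enah, an actin regulator, fell without FGF (log2 -0.55, edgeR adjusted p = 0.0206) and did not pass the test with FGF (log2 -0.33, edgeR adjusted p = 0.149). Exoc7, of the exocyst, fell in both (log2 -0.35 and -0.73, edgeR adjusted p = 0.0290 and 3.18e-04). Magi1, a scaffold of junctions, fell without FGF (log2 -0.31, edgeR adjusted p = 0.00310) and did not pass the test with FGF (log2 -0.06, edgeR adjusted p = 0.520). Leaving out Etv4_KO replicate 2 gave log2 -0.32 for Enah without FGF (edgeR adjusted p = 0.00212) and -0.34 with FGF, where it then passed (edgeR adjusted p = 5.01e-04), and -0.53 for Exoc7 without FGF (edgeR adjusted p = 3.01e-06). Without FGF the call of Enah was lost without control replicate 1 or 2 (edgeR adjusted p = 0.0631 and 0.0608), and that of Exoc7 without either of these or without Etv4_KO replicate 1 or 3 (edgeR adjusted p = 0.0755 to 0.105). The call of Cd44 without FGF was lost on leaving out any 1 of 6 libraries (edgeR adjusted p = 0.0551 to 0.118). These were control replicates 1, 2 and 3, Etv4_KO replicates 1 and 3 and control_FGF replicate 2, and without any 1 of them the number that rose without FGF was 0. It was 3 without Etv4_KO replicate 2, and the number that fell was 1 without control replicate 1 or 2. With FGF, 4 fell without Etv4_KO replicate 2 and 1 without Etv4_KO_FGF replicate 3.

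Of the proteases, Prss8 (chromosome 7, 127925716 to 127930104, minus strand) stood at 20.8, 20.8 and 21.7 CPM in control and at 19.1, 29.2 and 19.9 CPM in knockout replicates 1 to 3. With FGF it stood at 21.0, 21.2 and 21.8 against 21.7, 26.5 and 24.9 CPM. Etv4_KO replicate 2 was above, and the other 2 knockout libraries without FGF below, all 3 control libraries. The difference passed the test neither without FGF (log2 0.10 with SE 0.14, edgeR adjusted p = 0.568) nor with FGF (log2 0.19 with SE 0.14, edgeR adjusted p = 0.295). Without Etv4_KO replicate 2 the first turned to -0.11 (edgeR adjusted p = 0.330) and the second, still 0.19, was called (edgeR adjusted p = 0.0480). Exons of Kat8 on the opposite strand share 6.587% of the Prss8 exon bases.

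St14 (chromosome 9, 31089402 to 31131853, minus strand) stood at 203, 189 and 203 CPM in control and at 148, 209 and 159 CPM in knockout replicates 1 to 3. With FGF it stood at 188, 216 and 202 against 153, 152 and 154 CPM. Etv4_KO replicate 2 was the 1 knockout library above all control libraries of its condition, and the other 5 were below those of theirs. St14 fell with FGF (log2 -0.40 with SE 0.11, edgeR adjusted p = 0.00996). Without FGF it did not pass the test (log2 -0.21 with SE 0.11, edgeR adjusted p = 0.132), and it was called lower without Etv4_KO replicate 2 (log2 -0.37, edgeR adjusted p = 1.78e-05). Without Etv4_KO replicate 1 its estimate was -0.11 (edgeR adjusted p = 0.413). The ratio of St14 to Prss8 per kilobase lay between 2.21 and 2.36 in control and between 1.73 and 1.93 in knockout libraries, and with FGF between 2.18 and 2.47 and between 1.39 and 1.71. It was lower in each of the 6 knockout libraries, Etv4_KO replicate 2 included, than in any control library.

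Both inhibitors rose in knockout cells. Spint1 (chromosome 2, 119237362 to 119249527, plus strand) stood at 128, 119 and 120.1 CPM in control and at 148, 176 and 140.4 CPM in knockout replicates 1 to 3, and with FGF at 116, 123 and 121 against 144, 137 and 144 CPM. Spint2 (chromosome 7, 29256323 to 29281912, minus strand) stood at 279.6, 267 and 269 against 307, 351 and 301 CPM, and with FGF at 272, 315 and 278 against 326, 347 and 338 CPM. Within each FGF condition no knockout library of either gene fell into the range of control. Spint1 rose without FGF (log2 0.34 with SE 0.08, edgeR adjusted p = 0.00535) and also with FGF (log2 0.24 with SE 0.08, edgeR adjusted p = 0.0335). Spint2 rose without FGF (log2 0.23 with SE 0.08, edgeR adjusted p = 0.0256) and also with FGF (log2 0.22 with SE 0.08, edgeR adjusted p = 0.0338).

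Spint1 without FGF kept its call without any single library (edgeR adjusted p at most 0.0263). Spint2 without FGF lost it without control replicate 2 or 3 (edgeR adjusted p = 0.0809 and 0.0731). Both genes were highest in Etv4_KO replicate 2. Leaving out that library gave log2 0.23 for Spint1 and 0.16 for Spint2 without FGF (edgeR adjusted p = 0.00137 and 0.0203). With FGF, Spint1 lost its call without control_FGF replicate 1 or 3 (edgeR adjusted p = 0.111 and 0.0726) or Etv4_KO_FGF replicate 1, 2 or 3 (edgeR adjusted p = 0.0912, 0.0538 and 0.0927). Spint2 with FGF lost it without control replicate 2 (edgeR adjusted p = 0.050025), control_FGF replicate 1 or 3 (edgeR adjusted p = 0.133 and 0.114) or Etv4_KO_FGF replicate 1, 2 or 3 (edgeR adjusted p = 0.0516, 0.108 and 0.0843). Upper-quartile scaling ended the call of Spint2 without FGF and of both with FGF (edgeR adjusted p = 0.0527, 0.0968 for Spint1 and 0.108 for Spint2). A fit with no filter on low counts ended both calls with FGF (edgeR adjusted p = 0.0533 and 0.0518), and a fit on the compared libraries alone that of Spint2 without FGF (edgeR adjusted p = 0.0790). The sign was positive for both genes under every alternative run.

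Among 11 tested substrates and relatives of the membrane proteases, 3 rose and 3 fell without FGF, and 4 rose and 4 fell with FGF. Their median was 0.08 without and 0.20 with FGF. For all genes tested, 22.5% rose and 23.3% fell without FGF, and 18% rose and 22.2% fell with FGF. Klk10, a secreted kallikrein, rose to 84.2 ± 9.90 CPM from 7.32 ± 1.40 without FGF (log2 3.52, edgeR adjusted p = 1.31e-09), and rose with FGF (log2 3.63, edgeR adjusted p = 9.15e-10). Plau, the urokinase protease, rose to 775 ± 9.53 CPM from 386 ± 6.44 without FGF (log2 1.01, edgeR adjusted p = 1.51e-08) and to 1321 ± 23.4 CPM from 616 ± 8.31 with FGF (log2 1.10, edgeR adjusted p = 5.91e-09; mean ± SD, n = 3). Its receptor Plaur rose too (log2 0.60 and 0.64, edgeR adjusted p = 2.56e-05 and 1.51e-05). Serpinb5 (maspin), a serpin of epithelial cells, fell (log2 -1.20 and -1.19, edgeR adjusted p = 5.73e-06 and 4.81e-06).

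Of 27 junction and polarity genes, 6 rose and 12 fell without FGF, and 5 rose and 8 fell with FGF, where 8 rose without Etv4_KO replicate 2. Their median was -0.15 without and -0.02 with FGF. Shares over all genes tested were 22.5% higher and 23.3% lower without FGF, and 18% and 22.2% with FGF, all from the main fit. Without Etv4_KO replicate 2, 7172 of all genes were called with FGF, against 4862 in the main fit. Beside Cldn7, the desmosomal cadherin Dsc2 fell to 0.778 ± 0.223 CPM from 9.33 ± 0.929 (log2 -3.55, edgeR adjusted p = 2.90e-08), and Evpl, which links desmosomes to keratin, fell to 2.19 ± 0.806 CPM from 16.8 ± 1.31 (log2 -2.96, edgeR adjusted p = 7.05e-08; mean ± SD, n = 3). With FGF their log2 fold changes were -3.28 and -3.10. Crb3, an apical polarity protein, rose to 52.2 ± 5.68 CPM from 22.2 ± 0.839 without FGF (log2 1.23, edgeR adjusted p = 3.89e-07), and rose with FGF (log2 1.18, edgeR adjusted p = 4.97e-07).

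Of 8 tested genes of epithelial to mesenchymal transition, 1 rose and 3 fell without FGF, and 4 fell with FGF while the other 4 were not called. Their median was -0.20 without and -0.28 with FGF. All genes tested gave 22.5% higher and 23.3% lower without FGF, and 18% and 22.2% with FGF. Zeb1, a repressor of epithelial genes, had 50 counts in the control and 0 in the knockout libraries without FGF, and 34 and 0 with FGF, at least 15.4-fold and 10.6-fold lower at a floor of 3 counts per group. Fn1 (fibronectin) fell to 438 ± 77.0 CPM from 1315 ± 57.1 (log2 -1.59, edgeR adjusted p = 1.50e-07; mean ± SD, n = 3), and fell with FGF (log2 -1.37, edgeR adjusted p = 5.17e-07). Tcf4, an E-protein, fell in both (log2 -0.20 and -0.28, edgeR adjusted p = 0.0145 and 0.00282). Vim (vimentin) rose without FGF (log2 0.19, edgeR adjusted p = 0.0204) and did not pass the test with FGF (log2 -0.01, edgeR adjusted p = 0.875). Without control replicate 2 the calls of Tcf4 and Vim without FGF were lost (edgeR adjusted p = 0.0524 and 0.0840). The number that rose without FGF was 0 without control replicate 2, and 2 without Etv4_KO replicate 2 or 3.

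**Figure D4:**
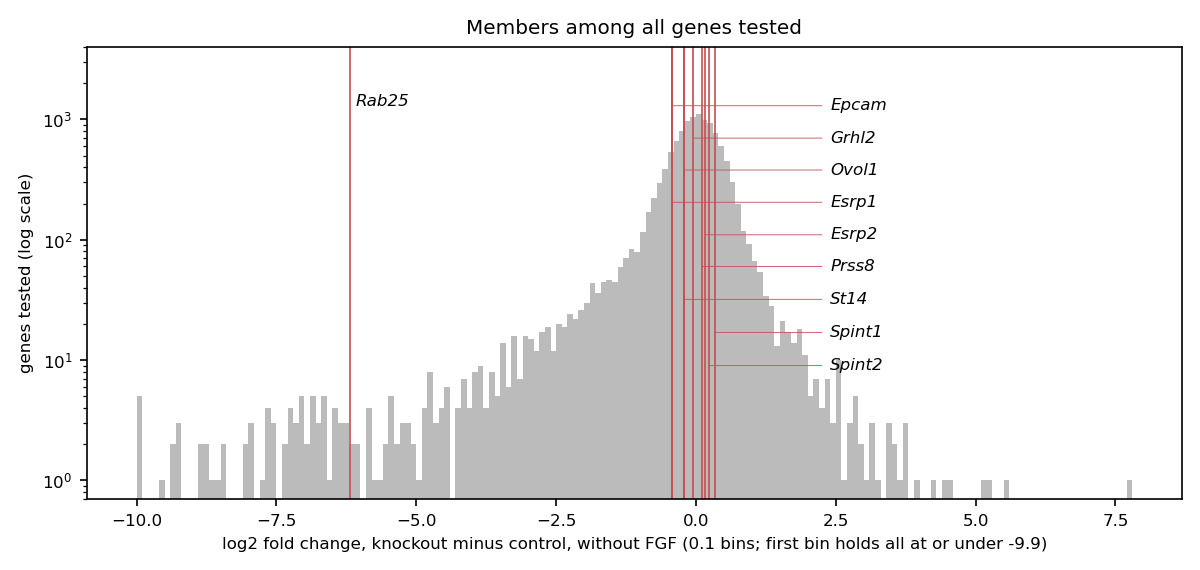
Number of tested genes (y axis, log scale) by log2 fold change, knockout minus control without FGF (x axis, bins of 0.1), with red lines at the members. The other 9 members lie between -0.43 and 0.34, in the bulk of the 12079 genes, and Rab25 lies at -6.19 in the lower tail.

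FGF was then compared within each genotype, and these comparisons share libraries with those above. By edgeR, 0 of 10 members were called in control cells, against 0.257% of all genes called higher and 0.232% called lower. At an unadjusted p under 0.05 there was 1, Ovol1, at 16.4 ± 1.69 CPM without and 11.7 ± 0.645 CPM with FGF (log2 -0.49 with SE 0.12, edgeR adjusted p = 0.144; mean ± SD, n = 3). All 3 control libraries with FGF were below all 3 without. DESeq2 called Ovol1 lower (adjusted p = 0.0274), limma-voom called 0 members, and edgeR called it without Etv4_KO replicate 2 (log2 -0.49, adjusted p = 0.0113). The other 9 members had log2 fold changes between -0.11 (Esrp1) and 0.13 (Epcam), and Rab25 was at -0.01 (95% interval -0.35 to 0.32).

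In knockout cells edgeR again called 0 of 10 members, against 1.47% of all genes called higher and 0.944% called lower. The 1 member at an unadjusted p under 0.05 was Esrp2, at 30.8 ± 1.37 CPM without and 37.4 ± 0.310 CPM with FGF (log2 0.28 with SE 0.08, edgeR adjusted p = 0.0853; mean ± SD, n = 3). DESeq2 called Esrp2 higher (adjusted p = 0.0152), and limma-voom called 0 members. Without Etv4_KO replicate 2, edgeR called 950 of all genes in either direction, against 292 in the main fit. Without that library 3 members were called higher: Epcam (log2 0.23, edgeR adjusted p = 0.00764), Esrp2 (log2 0.28, edgeR adjusted p = 0.0318) and Prss8 (log2 0.32, edgeR adjusted p = 0.0363). Rab25 was at -1.11 in knockout cells, which rests on 23 against 11 counts (SE 0.59, edgeR adjusted p = 0.305), and at -0.41 without that library (edgeR adjusted p = 0.781).

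The interaction of genotype and FGF asks whether the genotype effect differs between the FGF conditions. It was called for 0 of 10 members by edgeR, against 0.0166% of all genes called, and for 0 by DESeq2 and limma-voom as well. At an unadjusted p under 0.05 in edgeR there were also 0 members. The share of all genes at that unadjusted threshold was not computed, here or for the FGF comparisons above. Rab25 had -1.10 (95% interval -2.41 to 0.22, edgeR adjusted p = 0.503), and Esrp1 had 0.26 (interval -0.06 to 0.58, edgeR adjusted p = 0.509). Ovol1 had 0.26 (interval -0.10 to 0.62, edgeR adjusted p = 0.526), and Esrp2 had 0.19 (interval -0.05 to 0.43, edgeR adjusted p = 0.518). The other 6 lay between -0.19 (St14, interval -0.52 to 0.14) and 0.09 (Prss8, interval -0.34 to 0.51). Without Etv4_KO replicate 2 the estimates were -0.39 for Rab25 (edgeR adjusted p = 0.830) and 0.13 for Esrp1 (edgeR adjusted p = 0.526), and without control replicate 1 that of Esrp2 was 0.12 (edgeR adjusted p = 0.713). The intervals over all 12 libraries leave room for differences as large as the genotype effects of most members.

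**Figure D5:**
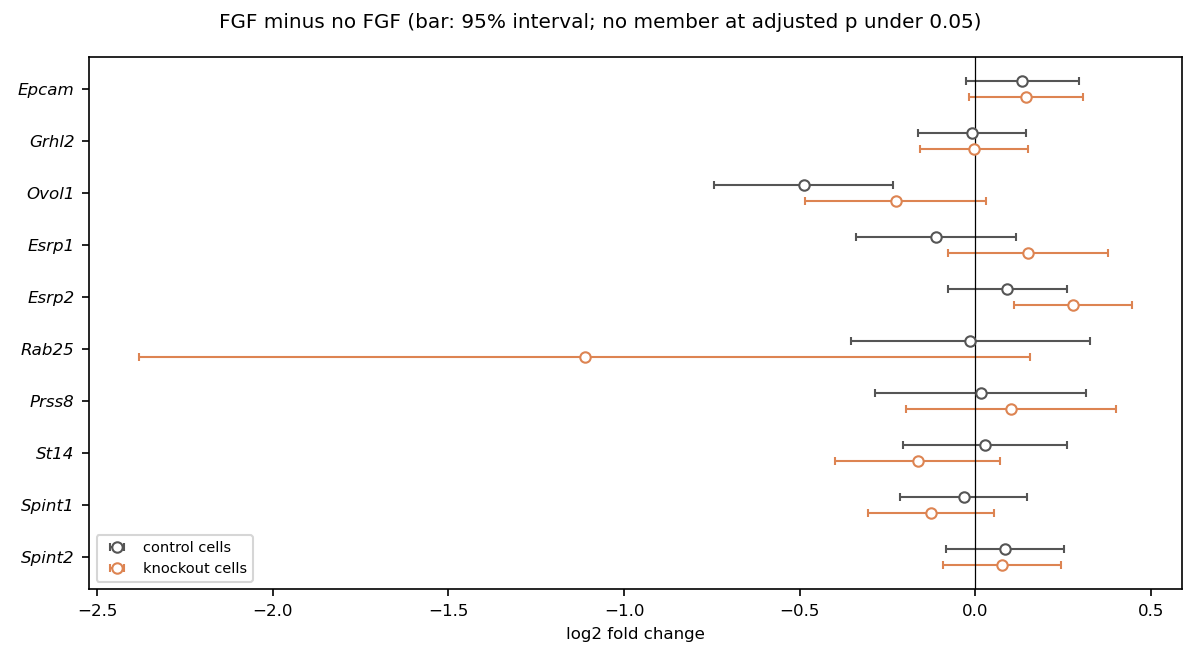
Log2 fold change of each member, FGF minus no FGF (x axis), in control and in knockout cells. Points are edgeR estimates from 3 against 3 libraries with 95% intervals, none with an adjusted p under 0.05; the intervals of Ovol1 in control cells and Esrp2 in knockout cells do not cross 0, and that of Rab25 in knockout cells is the widest.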

How the data were processed

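The deposited table gives raw read counts by gene symbol. The submitters' processing notes name FastQC 0.11.9, STAR 2.7.9a, R 4.1.1 and featureCounts, and the builds hg38 and mm10. Which annotation was counted, whether strand was used and how multi-mapping reads were treated is not given in the sources used here. Coordinates and exon lengths come from GENCODE vM21 (mm10).

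The main test was the quasi-likelihood F-test of edgeR 4.0.16 (R 4.3.3, two-sided) on genes kept by filterByExpr, with TMM scaling. One mean was fitted for each of the 4 groups over 12 libraries, which leaves 8 residual degrees of freedom. The groups share an estimate of the spread, so leaving out a library can change calls in comparisons that do not include it. Calls needed an adjusted p under 0.05, by Benjamini-Hochberg over 12079 genes. The SE is the log2 fold change divided by the root of F, and likeness used log2 CPM with a prior count of 2. Likeness was ranked among named genes only, and symbols of predicted or unnamed genes were left out. The fit was run on simulated data with few changed genes and no library like Etv4_KO replicate 2. Such data do not test it under the conditions seen here.

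Members and lists were chosen with earlier results of these data known. Named are all members, Etv4, their paralogs, up to 4 genes of each list with the smallest adjusted p in the knockout without FGF, and the 5 genes most like Rab25, Epcam or Grhl2. A gene that this rule also names is not reported here. Mex3a and Lamtor2 were named after their values were seen, as the nearest tested genes of Rab25.

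Alternatives were RLE and upper-quartile scaling, other filters on low counts, DESeq2 1.42.0, limma-voom (limma 3.58.1), a replicate block, the compared libraries alone, each library left out (for named list genes chosen after seeing the data), and Etv4_KO replicate 2 and control_FGF replicate 2 left out together. Library totals of 18229429 to 23193244 counts limit the precision of low genes.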

Additional observations from a re-analysis of the deposited data

How the results depend on the processing

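Rab25 and Epcam kept their calls and direction in both knockout comparisons under every alternative run. The replicate numbers did not pair the libraries (same-number deviations correlated between -0.087 and 0.078). With the replicate block no member's call changed, and 5705, 4944, 52, 269 and 3 genes were called in the knockout without and with FGF, FGF in control and knockout cells and the interaction, against 5533, 4862, 59, 292 and 2 without it. Members called higher in the knockout numbered 1 without FGF under upper-quartile scaling or on the compared libraries alone (1 to 2 when leaving out each library), and 1 with FGF under upper-quartile scaling or no filter (1 to 4 when leaving out each library). The sign of Prss8 without FGF turned to -0.11 without Etv4_KO replicate 2, alone or with control_FGF replicate 2 (-0.11 to 0.21 when leaving out each library), and that of Ovol1 with FGF to -0.0027 under upper-quartile scaling (-0.030 to 0.14 when leaving out each library), with no call. For FGF in control cells, 1 member was called lower by DESeq2, on the compared libraries alone, and without both libraries (0 to 1 when leaving out each library), and 141, 228 and 356 genes were called (25 to 343, lowest without control replicate 1 and highest without Etv4_KO replicate 2). For FGF in knockout cells, DESeq2 called 1 member and 709 genes, the compared libraries alone gave 23 genes, and leaving out both libraries gave 4 members and 1428 genes (0 to 3 members and 120 to 950 genes when leaving out each library, lowest without Etv4_KO_FGF replicate 2 and highest without Etv4_KO replicate 2). The interaction gave 8 genes with no filter, 60 by DESeq2, 4 by limma-voom and 210 without both libraries (0 to 120 when leaving out each library, highest without Etv4_KO replicate 2). Signs near 0 turned when leaving out single libraries: in control cells Grhl2 (-0.047 to 0.024), Rab25 (-0.072 to 0.043), Prss8 (-1.64e-04 to 0.035), St14 (-0.024 to 0.075, and -0.028 without both libraries) and Spint1 (-0.051 to 0.0012), and in knockout cells Grhl2 (-0.031 to 0.048, and 0.0081 with RLE, 0.0092 by DESeq2 and 0.014 on the compared libraries alone) and Prss8 (-0.0066 to 0.32). For the list genes named, leaving out each library was chosen after seeing the data, and the sign of Vim with FGF turned (-0.046 to 0.0089). The cause was not tested. The shares of all genes beside the list counts come from the main fit. Leaving out each library gave 4491 to 6667 genes called in the knockout without FGF, against 5533. With FGF it gave 3963 to 7172, against 4862, and both were highest without Etv4_KO replicate 2. Among the lists, the compared libraries alone gave 2 recycling genes lower without FGF, 0 splicing targets higher and 1 lower without FGF and 4 lower with FGF, and 0 transition genes higher. DESeq2 and the replicate block gave 2 transition genes higher. Upper-quartile scaling with FGF gave 2 regulators and 4 recycling genes higher. Without both libraries there were 3 splicing targets higher and 5 lower without FGF, 5 lower with FGF, 2 transition genes higher without FGF and 8 junction genes higher with FGF. With 23 and 11 counts of Rab25 in the knockout groups, counting error limits its FGF effect there.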
